A study of Mus musculus with 15 samples.

Results

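Mitochondrial ribosomal proteins are the protein parts of the ribosome that works inside mitochondria. The genes described here are the rows of the count table whose symbol is Mrpl or Mrps followed by digits and at most 1 letter, with pseudogene rows (-ps) left out. This rule found 78 genes of the 56832 in the table, 49 Mrpl genes named for the large subunit and 29 Mrps genes named for the small subunit. Genotype values played no part in the rule. The 78 genes had a single position each in the mouse annotation and were spread over 17 chromosomes.

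The mitochondrial ribosome (mitoribosome) translates the few proteins that mitochondrial DNA encodes, all of them parts of oxidative phosphorylation. Its RNAs come from mitochondrial DNA, while every protein in it is made in the cytosol from a nuclear gene and imported. Some of these proteins have a counterpart in the bacterial ribosome and others exist only in mitochondria. Taurine is linked to this machinery because it is attached to the wobble uridine of several mitochondrial tRNAs.

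The data were RNA-sequencing counts of mesenchymal stromal cells (MSCs) cultured from the long bones of mice aged 16 weeks, with and without a global knockout of the taurine transporter TauT (gene symbol Slc6a6) on a C57BL/6J background. There were 4 male TauT+/+, 4 male TauT-/-, 3 female TauT+/+ and 4 female TauT-/- libraries, 15 in all, so that the deletion was present in every cell type and at every age of the knockout animals. The marrow cells were grown in medium with serum at low oxygen, and CD45+, Ter119+ and CD31+ cells were then removed by magnetic depletion or by sorting. The labels do not say which animals the libraries came from, so the p-values measure the spread between these libraries. The question was whether transcripts of the mitoribosome differed between TauT-/- and TauT+/+ MSCs.

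Male-labelled libraries held 69764291 to 101575071 counts and female-labelled libraries 12761107 to 20781070, so sex label and depth cannot be told apart. In 3 libraries (male TauT+/+ 1, male TauT-/- 1 and female TauT+/+ 3) Xist and Ddx3y went against the sex label. The libraries male TauT+/+ 1 and female TauT+/+ 1 were nearly identical, as were male TauT-/- 1 and female TauT-/- 1. The spread of their log2 count ratios over genes was 0.115 and 0.104, above the counting error of 0.063 and 0.060, and at least 0.289 in the other 103 pairs of libraries. The male-labelled library of each pair was also among the 3 that went against their label, with Xist at 828 and 744 CPM beside 776 and 948 CPM in its female-labelled partner. A spread above counting error does not show separate cultures, and whether each pair came from 1 RNA was not tested. The main values count both libraries of each pair, so that n and p take them as 2 samples, and fits with 1 of each are given for Mrps6 and for the counts of calls. The targeted gene Slc6a6 had 586 to 2655 CPM (counts relative to the TMM-adjusted total of each library) in TauT+/+ and 392 to 1571 CPM in TauT-/- libraries, with overlap of the genotypes, a log2 fold change of -0.94 (SE 0.37) and an adjusted p of 0.141 by edgeR's quasi-likelihood test. Over 29 alternative fits the log2 fold change of Slc6a6 lay between -1.21 and -0.77, and its adjusted p was under 0.05 in 1 of them. Gene-level counts do not show whether the Slc6a6 reads came from the deleted part of the gene, and they did not separate the genotypes.

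Of the stromal marker list, 12 of 12 genes passed the filter on low counts, and their summed level was 20063 to 37085 CPM in TauT+/+ and 4922 to 27414 CPM in TauT-/- libraries. Most of this sum was Cxcl12 (mean 12039 CPM in TauT+/+ and 4385 CPM in TauT-/-) and Col1a1 (12751 and 8100 CPM), neither called by edgeR. Of the 12 genes, 5 had a positive and 7 a negative log2 fold change, so the sum does not describe the list as a whole. Macrophage markers were also present, with all 12 of 12 listed genes passing the filter. Their summed level was 1314 to 8976 CPM in TauT+/+ and 6046 to 19692 CPM in TauT-/- libraries, with a median log2 fold change of 0.98. Ptprc, which encodes CD45, had a mean of 122 CPM in TauT+/+ and 237 CPM in TauT-/- libraries. None of the erythroid markers Hbb-bs, Hba-a1 and Alas2 passed the filter, and the 5 endothelial markers summed to 1.32 to 8.86 CPM in TauT+/+ and 7.35 to 37.9 CPM in TauT-/- libraries. Most of this sum in TauT-/- libraries was Kdr, a VEGF receptor, at 2.85 CPM (SD 1.89) over the 7 TauT+/+ and 16.3 CPM (SD 11.8) over the 8 TauT-/- libraries, a log2 fold change of 2.18 (SE 0.52, edgeR adjusted p 0.0564, DESeq2 adjusted p 7.6e-04). The other defining markers Pecam1 and Cdh5 averaged at most 1.30 CPM in either genotype. The part of these other cells in the values below was not tested, and in bulk samples fewer cells of a type and less RNA per cell cannot be told apart.

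The promoters of 3 members are shown first. Mrps6 is shown because the results turn on it and it starts at the same base as Slc5a3. Mrpl12 and Mrpl45 hold the motif of NRF1, a factor known to act on mitochondrial genes, as do 7 member promoters in all. Mrpl12 was picked after its values were seen, and Mrpl45 is among the Mrpl genes with the largest positive changes. The sequences shown therefore do not describe the members with this motif as a set. Each sequence is the 250 bases before the annotated start of the gene's canonical transcript (GRCm39, GENCODE M39), written 5′ to 3′ on the gene's strand. Capitals mark matches to the NRF1 motif on either strand and, in the shared promoter, the tonicity element TonE, the site of the osmotic-stress factor NFAT5.
Mrps6 and Slc5a3, chr16:91854715-91854964, + strand: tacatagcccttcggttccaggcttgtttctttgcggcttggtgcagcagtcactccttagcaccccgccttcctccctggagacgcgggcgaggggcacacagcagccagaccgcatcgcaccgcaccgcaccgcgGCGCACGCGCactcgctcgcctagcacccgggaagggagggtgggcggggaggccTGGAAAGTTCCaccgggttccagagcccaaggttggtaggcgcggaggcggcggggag
Mrpl12, chr11:120375189-120375438, + strand: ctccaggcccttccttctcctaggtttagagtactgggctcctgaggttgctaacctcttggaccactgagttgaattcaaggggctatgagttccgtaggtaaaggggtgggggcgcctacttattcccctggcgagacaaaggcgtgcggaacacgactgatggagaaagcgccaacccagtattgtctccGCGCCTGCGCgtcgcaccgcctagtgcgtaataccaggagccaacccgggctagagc
Mrpl45, chr11:97206292-97206541, + strand: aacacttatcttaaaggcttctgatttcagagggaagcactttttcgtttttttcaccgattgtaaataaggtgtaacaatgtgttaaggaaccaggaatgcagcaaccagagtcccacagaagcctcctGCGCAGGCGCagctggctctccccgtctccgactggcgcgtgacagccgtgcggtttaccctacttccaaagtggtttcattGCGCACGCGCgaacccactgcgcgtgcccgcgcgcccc

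Both strands were searched, and a match is a description of letters and not a bound site. NRF1 matches were present in 7 of 78 member promoters (8.97%) and in 3.91% of the promoters of other protein-coding genes, and matches to the GABPA motif (CCGGAAGT) in 6 of 78 (7.69%) and 2.82%. The YY1 motif was present in 1 member promoter, that of Mrps11 (1.28%, against 0.167% of other promoters). The E-box CACGTG was found in 4 member promoters (5.13%, against 6.65% of others). The shared promoter of Mrps6 and Slc5a3 was the only member promoter with the full TonE motif (1.28%, against 4.19% of other promoters), at 58 to 48 bases before the start, and it overlaps its own 6-letter core TGGAAA, which 15 member promoters held (19.2%, against 18.8%).

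After the filter on low counts, 77 of the 78 members were tested among 18263 genes. Mrpl53, a mitochondria-specific protein of the large subunit, was left out with 0 or 1 count in each library. These counts do not show whether Mrpl53 was silent, and the reason was not tested. The other 77 were read in every group, and their level per kilobase of the canonical transcript spanned 19.0-fold, from 2.42 CPM per kilobase for Mrpl1, which lies at the exit site of the large subunit, to 46.1 CPM per kilobase for Mrpl33. The 3 highest Mrpl genes per length were Mrpl33, Mrpl42 and Mrpl20, at 46.1, 44.4 and 40.3 CPM per kilobase. The 3 highest Mrps genes were Mrps21 at 43.9, Mrps6 at 35.3 and Mrps18a at 26.8 CPM per kilobase, and the lowest was Mrps18c at 2.54 CPM per kilobase. The rank of Mrps6 rests on a mean over unlike libraries, from 9.69 CPM in female TauT-/- 4 to 117 CPM in male TauT+/+ 2. Its length includes an exon shared with Slc5a3. Mrpl33 and Mrpl42 did not differ beyond their spread, at 45.7 ± 6.93 and 48.4 ± 7.74 CPM per kilobase (SD, n = 7) in TauT+/+ libraries. These levels depend on which transcript gives the length, because the isoforms present were not measured.

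Together the 78 genes took 0.159 to 0.183% of all counts in TauT+/+ libraries and 0.153 to 0.192% in TauT-/- libraries. The summed level of the Mrpl genes was 1145, 1160, 1101 and 1190.3 CPM in male TauT+/+ and 1234, 1291, 1249.8 and 1209 CPM in male TauT-/- libraries. Under the female label the values were 1139, 969.8 and 1081 CPM in TauT+/+ and 1166, 1131, 1129.9 and 1168 CPM in TauT-/-. The male genotypes did not overlap, while the female genotypes overlapped through TauT+/+ 1. The summed level of the Mrps genes was 643, 671, 531 and 584 CPM in male TauT+/+ and 621, 644, 593 and 589.6 CPM in male TauT-/- libraries. Among female-labelled libraries the values were 635, 551 and 568 CPM in TauT+/+ and 593, 572, 546 and 539.7 CPM in TauT-/-. The genotypes overlapped within both sex labels for the small subunit. Mrps6 alone supplied 9.69 to 117 CPM of the small-subunit sum. Without Mrps6 the Mrps sum was 518 to 568 CPM in male TauT+/+ and 578 to 608 CPM in male TauT-/- libraries, which did not overlap. Under the female label it was 489 to 547 CPM in TauT+/+ and 530.1 to 577 CPM in TauT-/-, which did. How many genes separate by genotype within 1 label alone was not counted, so these separations of sums are a description.

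**Figure D1:**
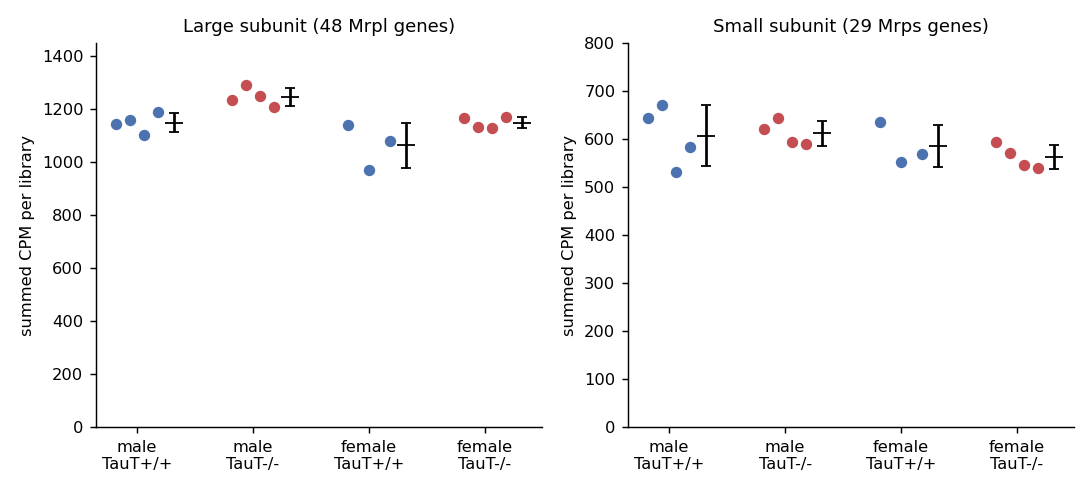
Summed CPM of the 48 tested Mrpl genes (left) and the 29 Mrps genes (right) in each library, by sex label and genotype, with points for libraries and bars for the mean ± SD of the group. Male TauT-/- libraries lie at 1209 to 1291 CPM for the large subunit, above the 1101 to 1190.3 CPM of male TauT+/+ libraries. The female genotypes overlap there, and for the small subunit the genotypes overlap under both labels.

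No member passed an adjusted p of 0.05 in edgeR's quasi-likelihood test over all 15 libraries, where 1.16% of the 18263 tested genes did (0.564% higher and 0.591% lower in TauT-/-). At an unadjusted p under 0.05 there were 18 members of 77, of which 16 were higher in TauT-/- and 2 lower. Of all genes tested 23.6% reached that level, 11.8% higher and 11.8% lower, close to the members' share of 23.4%. The 16 higher members became 8 without male TauT-/- 1, 9 without male TauT+/+ 2 and 10 without female TauT+/+ 2. DESeq2 on the same model called 10 members, 9 higher and 1 lower, where it called 11.5% of all genes, 5.34% higher and 6.13% lower. voom with quality weights called 3 members (Mrpl12 and Mrps23 higher and Mrps6 lower), where it called 6.54% of all genes, 3.61% higher and 2.93% lower. The genes that DESeq2 called higher were Mrpl12, Mrpl16, Mrpl19, Mrpl43, Mrpl50, Mrpl52, Mrps18c, Mrps23 and Mrps30, and Mrps6 was the member called lower.

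Log2 fold changes of TauT-/- against TauT+/+ were positive in 37 of 48 Mrpl genes and in 21 of 29 Mrps genes. Their median was 0.10 for the Mrpl genes and 0.07 for the Mrps genes, where the median of all genes tested was 0.0049. Among all genes 50.5% had a positive value. With Mrps6 left out, the 76 other values lay between -0.23 and 0.40. For all 76 the 95% interval stayed within 1 log2 unit of 0, a change of 2-fold, and for 65 of them it stayed within 0.5 log2 units. The median SE of the members was 0.11 log2 units.

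**Figure D2:**
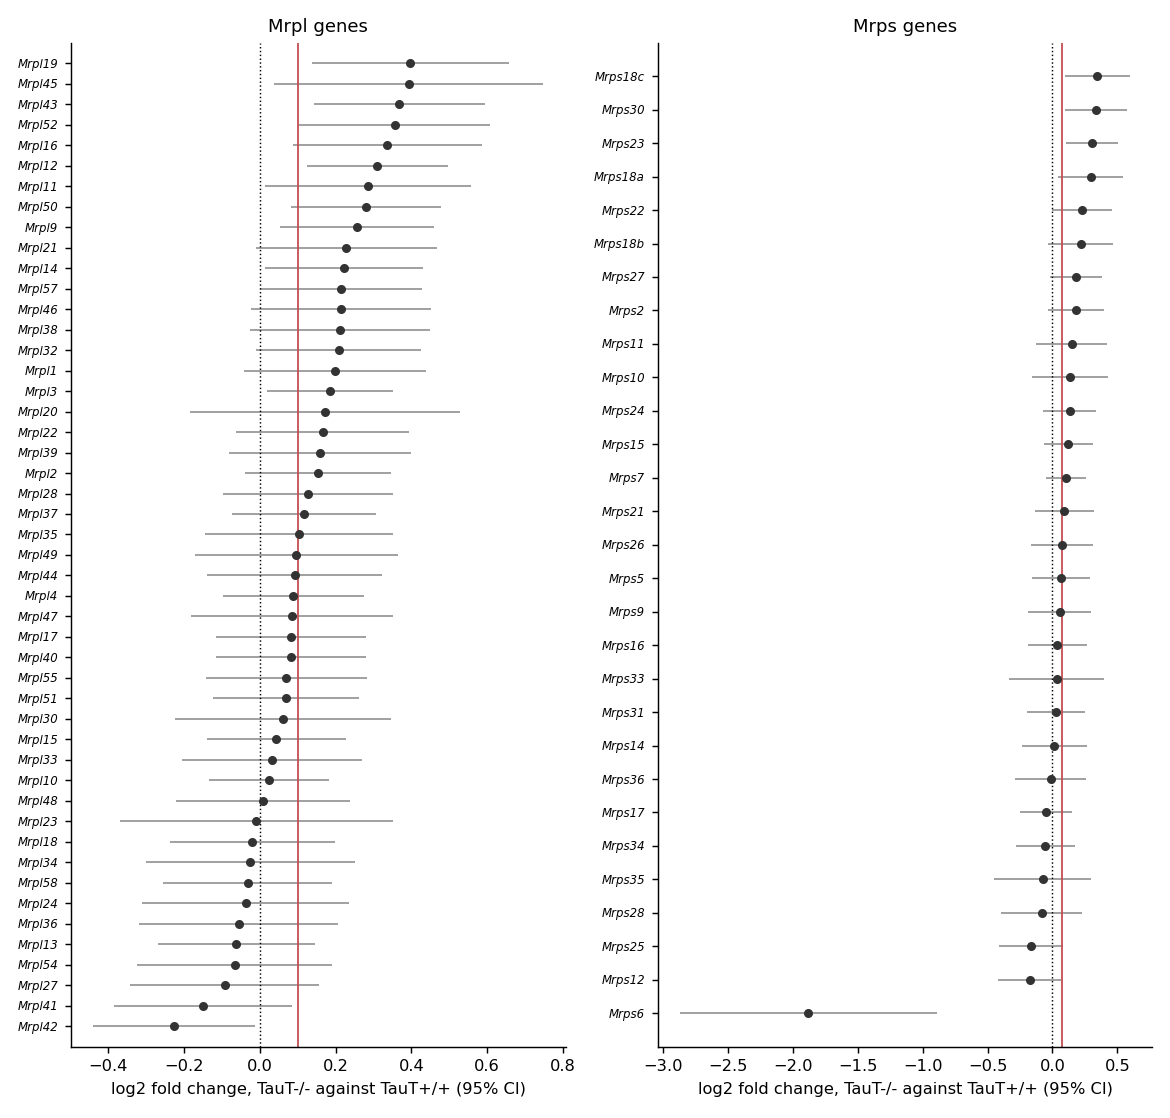
Log2 fold change of TauT-/- against TauT+/+ for the 48 Mrpl genes (left) and the 29 Mrps genes (right) from edgeR, with 95% intervals, a dotted line at 0 and a red line at the subunit's median; the 2 axes differ in scale. Mrps6 stands at -1.88, while the other members lie between -0.23 and 0.40.

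Mrps6 had the largest difference of all members. It encodes bS6m, a small-subunit protein with a bacterial counterpart. Its level was 89.9, 117, 12.3 and 15.5 CPM in male TauT+/+ and 18.02, 35.6, 11.2 and 11.9 CPM in male TauT-/- libraries. In female-labelled libraries it was 87.5, 62.0 and 35.3 CPM in TauT+/+ and 16.1, 17.2, 10.7 and 9.69 CPM in TauT-/-. The 4 highest values were all from TauT+/+ libraries, male 1 and 2 and female 1 and 2, and male TauT+/+ 3 and 4 and female TauT+/+ 3 lay within the range of the TauT-/- libraries. The log2 fold change was -1.88 (SE 0.46, 95% interval -2.87 to -0.89), with an adjusted p of 0.0594 by edgeR, and DESeq2 gave an adjusted p of 0.0020. The value was -1.61 within the male label and -2.20 within the female label, and the difference between the labels had an adjusted p of 1.000 by edgeR. The labels are not independent, because each near-identical pair has a library under both. The coefficient of variation among TauT+/+ libraries was 67.2%, where the median Mrps gene had 13.3%.

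Since 2 of the 4 high libraries were the near-identical pair male and female TauT+/+ 1, the fit was repeated with 1 library of each such pair. Mrps6 then had a log2 fold change of -1.79 (edgeR adjusted p 0.0988) with the female-labelled libraries kept and -1.74 (edgeR adjusted p 0.125) with the male-labelled libraries kept. Without the 3 libraries that went against their sex label it was -1.87 (edgeR adjusted p 0.164). In these 3 fits edgeR called no member, where it called 0.0133%, 0.0368% and 0% of all genes. At an unadjusted p under 0.05 they had 10, 15 and 10 members, where 23.4%, 20.1% and 18.9% of all genes reached that level. Leaving out male TauT+/+ 3, male TauT+/+ 4 or male TauT-/- 2 brought the edgeR adjusted p to 0.0169, 0.0398 and 0.0482.

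Mrps6 lies on chr16:91854965-91909592 (GRCm39, + strand). Its first exon of 404 bases is also the first exon of Slc5a3, which encodes a transporter of sodium and myo-inositol, an osmolyte as taurine is. Slc5a3 lies within the first intron of Mrps6, with its coding sequence in its second exon of 10754 bases. Of the first exon, 45 bases code for Mrps6. Reads that lie wholly within this exon cannot be assigned to either gene. Mrps6 also shares 305 exon bases with Gm49711, a gene on the same strand, as far as the end of its second exon. How the counting treated shared reads is not given in the sources used here.

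**Figure D3:**
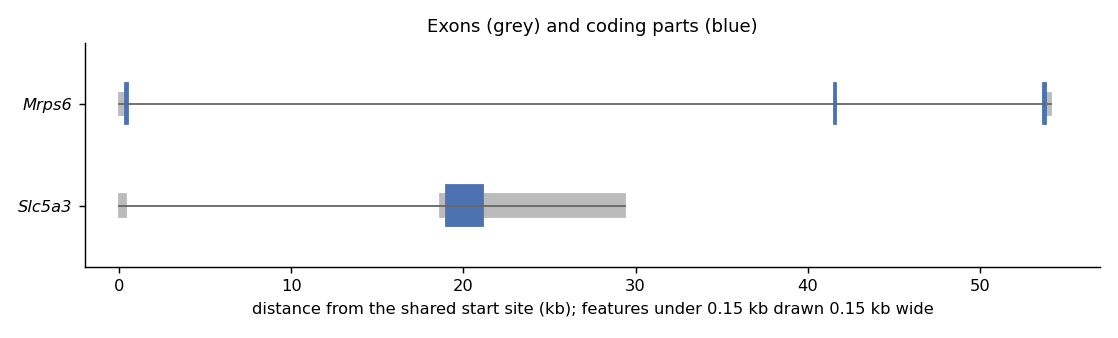
Map of Mrps6 and Slc5a3 by distance in kilobases from their shared start, with exons in grey and coding parts in blue (GENCODE M39). The first exon of 404 bases is common to both genes, and the second exon of Slc5a3 lies in the first intron of Mrps6.

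Slc5a3 was high in the same libraries as Mrps6. Its level was 424, 764, 33.2 and 47.0 CPM in male TauT+/+ and 52.6, 101, 21.0 and 35.6 CPM in male TauT-/- libraries. Under the female label the values were 357, 340.0 and 97.9 CPM in TauT+/+ and 46.2, 61.0, 17.1 and 20.9 CPM in TauT-/-. The 4 libraries with the highest Mrps6 were the 4 with the highest Slc5a3, and the ranks of the 2 genes in a library differed by at most 1 across all 15. As the 2 genes share a promoter, an exon and the libraries, this is a description and not independent support. Slc5a3 had 1.61 to 6.56 times the CPM of Mrps6, before any correction for length. Its log2 fold change was -2.72 (SE 0.63) with an adjusted p of 0.0510 by edgeR, and DESeq2 gave 3.8e-04.

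**Figure D4:**
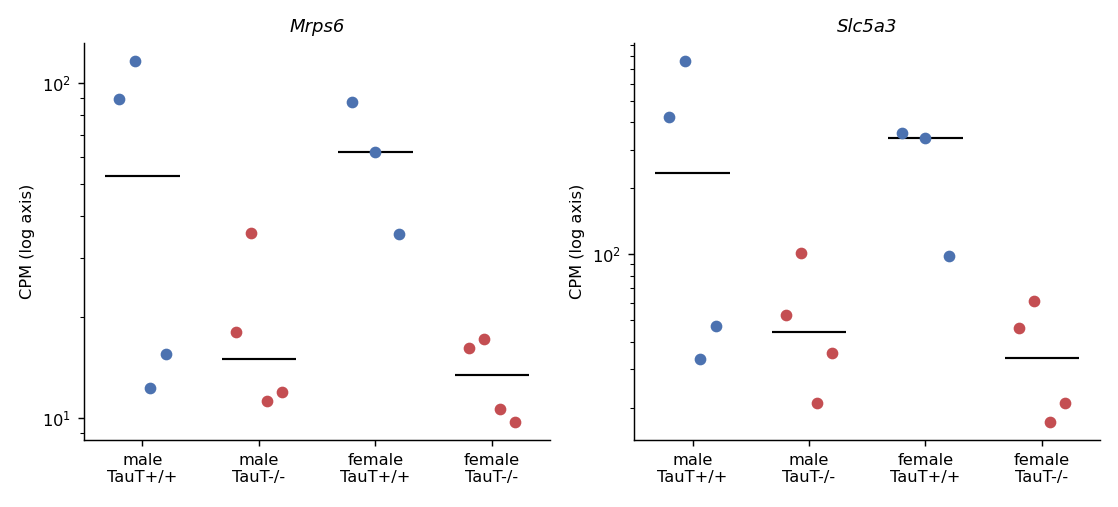
Level of Mrps6 (left) and Slc5a3 (right) in CPM on log axes in each library, by sex label and genotype, with lines at group medians. In both panels male TauT+/+ 1 and 2 and female TauT+/+ 1 and 2 are the 4 highest libraries, and male TauT+/+ 3 and 4 lie among the TauT-/- libraries.

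Of the 78 members, 8 share exon bases with another gene on the same strand in this annotation, Mrps6 among them. The overlap of Mrps34 with Nme3 took up 1110 of 2322 exon bases, and Mrps34 had a log2 fold change of -0.055 (SE 0.11). The others were Mrpl3, Mrpl33, Mrpl51, Mrps15, Mrps18c and Mrps24, whose levels are uncertain for the same reason.

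Among the Mrpl genes the 4 largest positive log2 fold changes were those of Mrpl19, Mrpl45, Mrpl43 and Mrpl52. Mrpl19, with a bacterial counterpart (bL19m), was at 23.3, 13.3, 21.1 and 20.4 CPM in male TauT+/+ and 23.7, 21.8, 23.2 and 25.3 CPM in male TauT-/- libraries. Among female-labelled libraries the values were 18.7, 15.6 and 15.7 CPM in TauT+/+ and 23.4, 27.6, 25.6 and 21.3 CPM in TauT-/-. The female genotypes did not overlap, and the male genotypes overlapped through male TauT+/+ 1. The share of all genes that separate within the female label alone was not counted. Its log2 fold change was 0.40 (SE 0.12) with an edgeR adjusted p of 0.0857.

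Mrpl43, a mitochondria-specific protein (mL43), was at 26.6, 28.4, 30.7 and 33.3 CPM in male TauT+/+ and 46.9, 32.5, 36.4 and 41.9 CPM in male TauT-/- libraries. In female-labelled libraries it was 28.7, 24.97 and 31.4 CPM in TauT+/+ and 43.8, 33.2, 31.9 and 33.0 CPM in TauT-/-. Female genotypes did not overlap, again without a share of all genes beside it. Male TauT-/- 2 lay below male TauT+/+ 4, and the near-identical pair of TauT-/- libraries held the highest values. The log2 fold change was 0.37 (SE 0.11) with an edgeR adjusted p of 0.0763. Mrpl52, also mitochondria-specific, averaged 33.7 CPM (SD 3.87) over the 7 TauT+/+ and 43.3 CPM (SD 7.22) over the 8 TauT-/- libraries, a log2 fold change of 0.36 (SE 0.12). Mrpl45, which tethers the mitoribosome to the inner membrane, averaged 25.8 CPM (SD 2.36) over the 7 TauT+/+ and 34.3 CPM (SD 10.5) over the 8 TauT-/- libraries. Female TauT-/- 4 alone reached 56.9 CPM of Mrpl45, and the log2 fold change of 0.39 (SE 0.17, edgeR adjusted p 0.171) was 0.25 without that library.

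Mrpl12 had the smallest p of the Mrpl genes and was chosen for description after its values were seen. It encodes bL12m, the protein of the flexible stalk that recruits translation factors. It was at 30.9, 26.4, 36.5 and 38.9 CPM in male TauT+/+ and 42.6, 40.0, 40.1 and 43.3 CPM in male TauT-/- libraries. Under the female label the values were 30.8, 28.03 and 32.3 CPM in TauT+/+ and 36.9, 37.2, 35.4 and 39.5 CPM in TauT-/-. Within each sex label the TauT-/- libraries were all above the TauT+/+ libraries, as for 2 of 77 members and 1.13% of all genes tested, while 0.597% of genes and no member lay below in the same way. Its log2 fold change was 0.31 (SE 0.09, 95% interval 0.12 to 0.50), 0.32 within the male and 0.29 within the female label, with an edgeR adjusted p of 0.0746. The 2 labels are not independent, because each near-identical pair has a library under both.

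The Mrpl genes with the 4 largest negative values were Mrpl42, Mrpl41, Mrpl27 and Mrpl54. Mrpl42 (mL42) averaged 37.5 CPM (SD 6.0) over the 7 TauT+/+ and 31.8 CPM (SD 3.81) over the 8 TauT-/- libraries, a log2 fold change of -0.23 (SE 0.10, edgeR adjusted p 0.189). The values were -0.15 (SE 0.11) for Mrpl41, -0.09 (SE 0.12) for Mrpl27, whose bacterial counterpart lies at the peptidyl transferase centre, and -0.07 (SE 0.12) for Mrpl54. The members with the highest levels per length had values of 0.03 (SE 0.11) for Mrpl33 and 0.17 (SE 0.17) for Mrpl20, and the sign of Mrpl33 turned under upper-quartile scaling.

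Among the Mrps genes the 4 largest positive values were those of Mrps18c, Mrps30, Mrps23 and Mrps18a. Mrps23, a mitochondria-specific protein of the small subunit, averaged 27.4 CPM (SD 3.64) over the 7 TauT+/+ and 33.6 CPM (SD 4.32) over the 8 TauT-/- libraries, a log2 fold change of 0.30 (SE 0.09, edgeR adjusted p 0.0872). After Mrps6 the largest negative values were -0.18 (SE 0.11) for Mrps12, whose product (uS12m) lies at the decoding centre, -0.16 (SE 0.12) for Mrps25 and -0.08 (SE 0.15) for Mrps28, all with intervals that span 0. Mrps21, the Mrps gene with the highest level per length, had a value of 0.09 (SE 0.11).

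The symbol and the place in the ribosome part ways for some Mrps genes. Mrps30 (mL65) and Mrps18a (mL66) sit in the large subunit, and Mrps36 belongs to the 2-oxoglutarate dehydrogenase complex and not to the mitoribosome. Mrps30 was at 19.4, 18.5, 19.4 and 17.7 CPM in male TauT+/+ and 23.9, 20.9, 21.0 and 22.2 CPM in male TauT-/- libraries. Among female-labelled libraries the values were 20.2, 16.1 and 17.6 CPM in TauT+/+ and 22.6, 20.3, 22.6 and 33.6 CPM in TauT-/-. The lowest TauT-/- value exceeded the highest TauT+/+ value, which held for 1 of 77 members and for 0.783% of all genes tested (0.334% lay below in the same way), and the gap between female TauT+/+ 1 and female TauT-/- 2 was small. Its log2 fold change was 0.34 (SE 0.11, edgeR adjusted p 0.102). Mrps36 averaged 5.31 CPM (SD 0.74) over the 7 TauT+/+ and 5.25 CPM (SD 0.39) over the 8 TauT-/- libraries, with a log2 fold change of -0.01 (SE 0.13).

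The 3 paralogues Mrps18a, Mrps18b and Mrps18c take different places, with Mrps18a in the large subunit and Mrps18b (mS40) and Mrps18c (bS18m) in the small. Their log2 fold changes were 0.29 (SE 0.12), 0.22 (SE 0.12) and 0.35 (SE 0.12), with edgeR adjusted p of 0.15, 0.273 and 0.108. Their levels per length were far apart, with Mrps18c at 2.22 ± 0.27 and Mrps18a at 23.8 ± 2.36 CPM per kilobase (SD, n = 7) in TauT+/+ libraries, and Mrps18c shares 250 exon bases with another gene.

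Grouped by place, 50 tested proteins of the large subunit had a median log2 fold change of 0.11 and 26 of the small subunit 0.07, with no call by edgeR in either. Members with a bacterial counterpart and mitochondria-specific members had medians of 0.09 over 46 genes and 0.11 over 30 genes. At an unadjusted p under 0.05 both groups held 8 higher members and 1 lower member, of 46 and of 30, where 11.8% of all genes were higher and 11.8% lower. Within the large subunit the median was 0.10 for 30 genes with a bacterial counterpart and 0.14 for 20 mitochondria-specific genes.

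Within the male label the median log2 fold change was 0.13 for the Mrpl and 0.12 for the Mrps genes, where that of all genes was -0.02. Within the female label it was 0.11 and 0.04, where that of all genes was 0.03. Of the 77 members, 47 had a positive value under both labels and 12 a negative value under both. Each near-identical pair has a library under both labels, so the labels are not independent and their shared signs are a description. edgeR called no member and 0% of all genes within either label or in the difference between them. At an unadjusted p under 0.05 there were 6 members within the male label, where 8.70% of all genes reached it, and 8 within the female label, where 14.8% did. For the difference between the labels no member did, where 1.62% of all genes did.

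The 5 mitoribosome proteins with other names (Dap3, Ptcd3, Chchd1, Aurkaip1 and Gadd45gip1) had a median log2 fold change of 0.11, with none called by edgeR and Chchd1 called by DESeq2. Chchd1, a small-subunit protein, averaged 18.6 CPM (SD 2.30) over the 7 TauT+/+ and 24.4 CPM (SD 2.45) over the 8 TauT-/- libraries, a log2 fold change of 0.39 (SE 0.10, edgeR adjusted p 0.0620). The median was 0.04 for 29 assembly and rRNA maturation factors, 0.02 for 17 translation factors, -0.05 for 4 genes of mitochondrial transcription and -0.09 for 17 mitochondrial aminoacyl-tRNA synthetases. edgeR called none of these, where 1.16% of all genes were called. DESeq2 called 1 higher and 2 lower among the assembly factors, 1 lower translation factor and 1 lower synthetase, where it called 11.5% of all genes. At an unadjusted p under 0.05 edgeR found 3 higher and 3 lower assembly factors, 1 higher and 4 lower translation factors and 2 lower synthetases, and none in mitochondrial transcription, where 11.8% of all genes were higher and 11.8% lower at that level.

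The enzymes that place taurine on mitochondrial tRNA or complete that base are Mto1, Gtpbp3 and Trmu. None was called by edgeR or DESeq2. Their log2 fold changes were 0.26 (SE 0.10, edgeR adjusted p 0.152) for Mto1, 0.01 (SE 0.12) for Gtpbp3 and -0.25 (SE 0.17) for Trmu. Mto1 was at 9.57 to 11.1 CPM in TauT+/+ and 10.5 to 15.2 CPM in TauT-/- libraries, which overlap.

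Of the 15 mitochondrially encoded rRNA and protein genes, 9 passed the filter. Their median log2 fold change was -0.51, with a positive value in 1. edgeR called none, where it called 1.16% of all genes. At an unadjusted p under 0.05 edgeR found 3 of the 9 lower, where 11.8% of all genes were lower. DESeq2 called mt-Nd4 lower, where it called 6.13% of all genes lower. The summed level stood apart in 2 TauT+/+ libraries, male TauT+/+ 4 at 27545 CPM and female TauT+/+ 3 at 29959 CPM. The other TauT+/+ libraries had 9123 to 14317 CPM and the TauT-/- libraries 9912 to 16722 CPM, which overlap. mt-Nd4 was at 2091 and 2579 CPM in those 2 libraries and at 817 to 1149 CPM in the other TauT+/+ libraries, against 366 to 1066 CPM in TauT-/- libraries. mt-Nd4, a subunit of complex I, averaged 1379 CPM (SD 676) over the 7 TauT+/+ and 764 CPM (SD 219) over the 8 TauT-/- libraries, a log2 fold change of -0.86 (SE 0.28, edgeR adjusted p 0.0995). The rRNAs of the mitoribosome had values of -0.01 (SE 0.39) for mt-Rnr1 and 0.04 (SE 0.35) for mt-Rnr2, but the libraries were primed with oligo-dT, so these counts do not measure all rRNA.

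**Figure D5:**
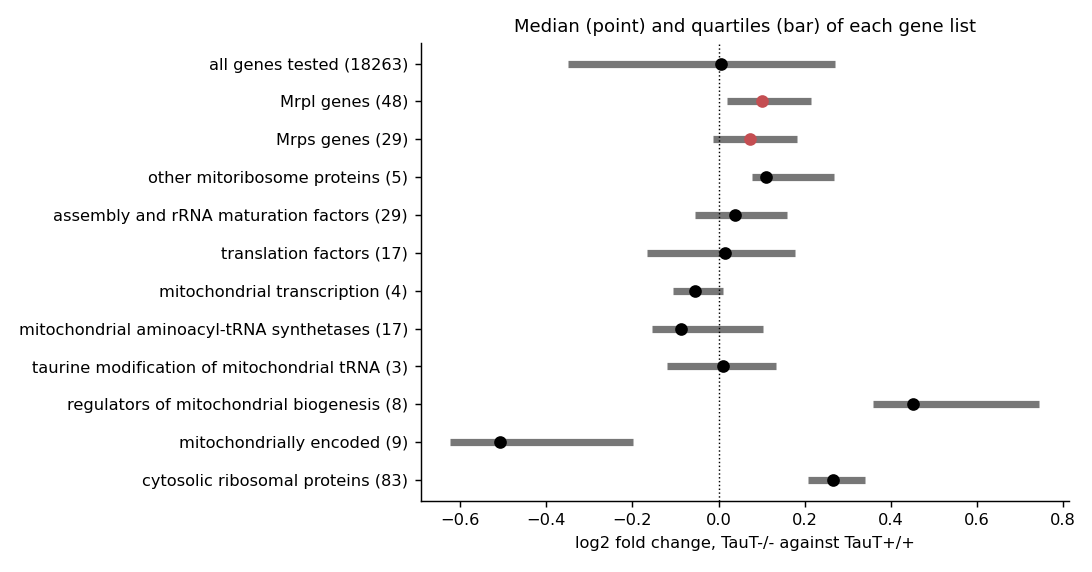
Median (point) and interquartile range (bar) of the log2 fold change of TauT-/- against TauT+/+ in edgeR for all 18263 tested genes, the Mrpl and Mrps genes (red points) and other gene lists, with the number of tested genes in brackets. The Mrpl and Mrps medians are 0.10 and 0.07, and that of the mitochondrially encoded genes is -0.51.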

How the data were processed

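RNA was sequenced from 15 libraries of cultured MSCs in the 4 groups of sex label and genotype. The authors made full-length cDNA by oligo-dT priming, trimmed reads with fastp 0.23.1, mapped them with STAR 2.7.9a to GRCm39 (GENCODE M31) and counted them per gene by strand with featureCounts of Subread 2.0.1. The authors deposited raw read counts for each gene, without normalization, and 0 columns lacked a sample.

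The test was run with edgeR 4.0.16 under R 4.3.3 (TMM, filterByExpr by the 4 groups, quasi-likelihood test on sex label and genotype), with Benjamini-Hochberg adjustment over all 18263 tested genes and a threshold of 0.05. Contrasts within a sex label used 1 term per group. The alternatives were DESeq2 1.42.0 (the study's own tool), voom in limma 3.58.1, other scalings and filters, no sex term, a replicate block, each sex label alone, subsets of libraries and leaving out each library. The code was tested on simulated data. CPM are TMM-scaled, and levels per kilobase use the canonical transcript of GENCODE M39, a later annotation of the same build. Tables and figures were made in Python 3.11.15.

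Named genes are members past the threshold, in each subunit the 4 largest positive and 4 largest negative changes and the 3 highest levels per length, the Mrps18 paralogues, Mrps30, Mrps36, members left out by the filter and Slc6a6. The members and lists were chosen with earlier results of these data known. Depth ran from 12761107 to 101575071 counts, and counting error is larger in the shallower female-labelled libraries.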

Additional observations from a re-analysis of the deposited data

Results flagged for a closer look

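A sample far from the others of its group was looked for in the 3 groups of 4 libraries, for 22 named genes and the 2 subunit sums. Chance gives about 1 such sample in 20 groups, or 3.60 in the 72 groups examined, and 2 were found. Mrpl43 was at 43.8 CPM in female TauT-/- 1 and between 31.9 and 33.2 CPM in the other female TauT-/- libraries, and this gap took up 0.894 of the range of the group. Mrpl52 was at 35.0 CPM in male TauT-/- 1 and between 43.9 and 45.3 CPM in the other male TauT-/- libraries, a gap of 0.861 of the range. These are the 2 libraries of the near-identical TauT-/- pair. No named gene differed between the sex labels in its genotype effect by edgeR.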

How the results depend on the processing

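edgeR called 0 Mrpl and 0 Mrps genes in either direction. DESeq2 called 6 Mrpl and 3 Mrps genes higher and 1 Mrps gene lower, and voom called 1, 1 and 1. The 1 Mrps gene called lower was Mrps6, which edgeR also called without a sex term, with at least 10 counts in every library (1 gene each) and in 3 of the fits that left out a library, where the count ranged from 0 to 1. The other counts of calls over all libraries left out ranged from 0 to 0. The Mrpl median log2 fold change of 0.10 was 0.060 with at least 10 counts in every library, 0.069 with upper-quartile scaling and 0.14 with voom, and 0.067 to 0.12 with a library left out. The Mrps median of 0.07 was 0.023 in female-labelled and 0.12 in male-labelled libraries alone, and 0.023 to 0.096 with a library left out. With upper-quartile scaling the median of all genes tested was also lower, at -0.029 against 0.0049 in the main fit. The cause of these shifts was not tested.

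Over all genes edgeR called 103 higher and 108 lower, 8 and 4 without female TauT+/+ 1 or female TauT+/+ 2, and 470 and 766 without male TauT+/+ 3. Without 1 library of each near-identical pair, edgeR called 2 or 7 genes in all, and without the 3 libraries that went against their sex label it called none, with 3284 genes at an unadjusted p under 0.05. No member was called in these fits. The cause was not tested.

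Signs turned for values near 0. Mrps28 was 0.0025 without the libraries against their label, 0.078 in male-labelled libraries alone and 0.023 with voom. Mrpl33 was -0.0089 with at least 10 counts, -0.095 in female-labelled libraries alone, -0.00074 with upper-quartile scaling and -0.036 when scaled to the summed member counts, and ranged from -0.041 to 0.088 with a library left out. Mrps36 was 0.0010 with the female-labelled libraries of each pair kept and 0.054 in male-labelled libraries alone, and ranged from -0.080 to 0.019 with a library left out. Mrpl54 was 0.019 in male-labelled libraries alone.

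The replicate numbers were not taken to pair the samples, since only 5 of 7 same-number correlations between genotypes were over 0.1. The 4 male pairs had 0.19 to 0.61, where male libraries of different numbers had -0.33 to 0.16. The 3 female pairs had -0.05 to 0.26, where different numbers had -0.25 to 0.21. In 6 of 7 cases, 4 of them male, the TauT-/- library correlated best with the TauT+/+ library of its own number. This is a hint from the data and not from the design, and it is stronger under the male label. With the replicate number as a block within the sex label, the Mrpl median was 0.11 and the Mrps median 0.08, 0 members were called, Mrps6 was at -1.52 (edgeR adjusted p 0.0553) and Slc5a3 passed the threshold at -2.17 (edgeR adjusted p 0.0480).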

Other observations

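Of 85 cytosolic ribosomal protein genes, chosen with earlier results of these data known, 83 passed the filter and 80 of them had a positive log2 fold change, with a median of 0.27. edgeR called none, with 22 at an unadjusted p under 0.05, all higher, where 11.8% of all genes were higher at that level. DESeq2 called 4, all higher, where it called 5.34% of all genes higher. Their summed level was 15791 to 29607 CPM in TauT+/+ and 18702 to 35311 CPM in TauT-/- libraries, which overlap.

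Of 8 regulators of mitochondrial biogenesis, edgeR called none. At an unadjusted p under 0.05 there were 6, all higher in TauT-/-, where 11.8% of all genes were higher. Within the male label 7 of the 8 values were positive and 2 regulators reached that level, where 8.70% of all genes did. Within the female label 8 were positive and 4 reached it, where 14.8% of all genes did. The near-identical TauT-/- pair had the highest summed levels, 555 and 544 CPM, and fits with 1 of each pair are not given for this list. DESeq2 called 5 of the regulators higher, where it called 5.34% of all genes higher. Their median log2 fold change was 0.45. Esrra, which encodes a nuclear receptor of oxidative metabolism, averaged 38.2 CPM (SD 7.57) over the 7 TauT+/+ and 51.3 CPM (SD 7.31) over the 8 TauT-/- libraries, a log2 fold change of 0.42 (SE 0.12, edgeR adjusted p 0.0807). The values were 0.41 (SE 0.11) for Yy1, 0.69 (SE 0.20) for Pprc1, 0.90 (SE 0.30) for Myc and 0.94 (SE 0.33) for Ppargc1b, and they were 0.21 (SE 0.09) for Nrf1 and 0.02 (SE 0.10) for Gabpa. All 8 values lay between 0.02 and 0.94, that of the remaining regulator Ppargc1a included.

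The cycling markers Mki67, Top2a, Ccnb1, Cdk1, Pcna and Mcm5 had a median log2 fold change of 0.65. Pcna rose in TauT-/- libraries by 0.65 (SE 0.12, edgeR adjusted p 0.0325), and Cd68 of the macrophage list rose by 1.5 (SE 0.33, edgeR adjusted p 0.0432). No other gene of these 2 lists was called by edgeR, where it called 0.564% of all genes higher. Without the 3 libraries that went against their sex label edgeR called no gene, so neither call held there. Endothelial markers had a median of 0.12 and stromal markers of -0.30, with none called by edgeR, while among endothelial markers DESeq2 called Kdr higher (edgeR log2 fold change 2.18, DESeq2 adjusted p 7.6e-04). DESeq2 called 6 of 12 macrophage markers higher and 2 of 12 stromal markers lower, where it called 5.34% of all genes higher and 6.13% lower. Their part in the ribosomal protein values was not tested.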
